A study of Mus musculus with 12 samples.

Results

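The genes described here flank Habp2 on mouse chromosome 19. Habp2 encodes FSAP, a protease that the liver secretes into blood and that activates factor VII. The members are the genes of the non-control probes that the deposited files place within about 10 Mb on the centromere side of Habp2 and from there to the end of the chromosome, without Habp2 and without the probes of a narrow window at its locus. The first such probe starts and the last one ends at chr19:46404872-61308676 (mm9). There were 197 such probes for 168 genes or identifiers, of 39429 probes in all. Of the 197, 111 probes for 97 genes or identifiers (56.4%) were well above background on at least 3 of 12 arrays and were tested, against 24235 of 39429 probes (61.5%) over the whole array. The other 86 probes were too dim to test, and 69 of them were not well above background on any array, and among the genes left out in this way were Pnlip, Pnliprp1 and Pnliprp2 (pancreatic lipase and its relatives), Adra2a (an adrenergic receptor), Dusp5 (a phosphatase of the MAP kinase pathway) and Col17a1 (a transmembrane collagen).

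Liver RNA of 12 mice was measured on 12 one-colour arrays, 1 mouse per array and 3 mice per group. The groups were FSAP-/- mice after bile duct ligation (BDL), which stops bile flow and leads to biliary fibrosis, WT littermates after BDL, FSAP-/- mice after a sham operation, and WT littermates after a sham operation. FSAP-/- and WT mice came from heterozygous parents, had been crossed to BalbC for 3 generations and were 20 to 30 weeks old, and livers were taken 2 weeks after surgery. The labels give neither the strain in which Habp2 was targeted, nor the part of the gene that was removed, nor the sex of the mice.

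As background, a gene targeted in embryonic stem cells of one strain keeps the DNA of that strain around it when the mice are crossed to another strain. Recombination trims this flank by only a little in each generation. Homozygous mutants then carry the flank on both copies and WT littermates do not, so variants in neighbouring genes can travel with the targeted allele and can change the level of a neighbour, or how well a probe binds it. The comparison asks whether the genes around Habp2 differed by genotype in sham-operated or ligated liver, apart from Habp2 itself.

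Values are log2 signal relative to the 75th percentile of the same array, so that 0 is the brightness of the 75th percentile probe. Differences are FSAP-deficient minus WT, or BDL minus sham, on the log2 scale. Beside them stand the standard error (SE) or the 95% confidence interval of a limma model fitted to all 24235 tested probes, with p-values adjusted over all of these by the Benjamini-Hochberg method and called below 0.05. Levels of different probes are not comparable with each other. With 3 mice a group, the number of arrays sets the precision.

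The targeted gene followed the labels. Habp2 stood at -7.05, -6.84 and -6.84 in FSAP-deficient livers after BDL, against 5.27, 5.17 and 5.11 in WT livers after BDL, which is at least 1183-fold lower (adjusted p = 3.1e-05). After a sham operation it stood at -3.33, -6.63 and -6.60 in FSAP-deficient livers, against 5.51, 5.59 and 5.61 in WT livers (log2 difference -11.09, SE 0.68, adjusted p = 7.62e-05). The one mutant array with a Habp2 signal well above background was FSAP-deficient sham replicate 1. That array also differed from the other 11 in having been extracted with values of 3 significant digits. Signal of the Y-linked genes Ddx3y and Eif2s3y was well above background on 3 FSAP-deficient arrays (sham replicate 1, BDL replicates 1 and 2) and on 0 WT arrays. All 10 hepatocyte markers were well above background on every array.

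The left-out window held a second probe for the Habp2 locus, ENSMUST00000078284, which was at least 39.7-fold lower after BDL and at least 32.6-fold lower after a sham operation in FSAP-deficient livers. It also held a probe for Nrap, a cytoskeleton gene of muscle. The reverse complement of the Nrap probe shares a run of 28 bases with the Habp2 probe, shown here because it is common to the probes of both genes. Within the Habp2 probe the run lies at chr19:56394551-56394578 on the plus strand (mm9). The position read for the Nrap probe, chr19:56394493-56394500 on the minus strand, is shorter than the probe and does not cover the run.
Run shared by Habp2 and Nrap probes: TTTAATAAAGGCAGATGTGGGCACGGGG
The Nrap probe stood at -0.31, -0.22 and -0.51 in FSAP-deficient livers after BDL, against -0.20, -0.35 and -0.68 in WT livers after BDL. Its difference was 0.07 after BDL (95% interval -0.29 to 0.43) and 0.06 after a sham operation (-0.31 to 0.42), so it did not share the loss of the Habp2 probe.

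The array reads each gene through probes of 60 bases, and a variant between strains under a probe could alter the measured signal. Shown here as examples of what a signal rests on are probes of 5 genes that the results return to, taken from those with a reading frame open over all 60 bases. They include the leading probe after BDL, that of As3mt, but not every leading probe. Strain sequences were not set against them. They are given 5′ to 3′ as the array design has them, with no part marked. As3mt, which encodes the enzyme that methylates arsenic, was read at chr19:46815312-46815371, plus strand.
As3mt: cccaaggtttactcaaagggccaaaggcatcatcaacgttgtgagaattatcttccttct
Nt5c2, a cytosolic nucleotidase, was read at chr19:46964425-46964606, minus strand, a stretch longer than the probe.
Nt5c2: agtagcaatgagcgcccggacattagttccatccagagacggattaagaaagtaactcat
Acsl5, an enzyme that activates long-chain fatty acids, was read at chr19:55368743-55369331, plus strand, again a stretch longer than the probe.
Acsl5: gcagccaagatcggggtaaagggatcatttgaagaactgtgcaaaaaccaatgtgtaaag
Tcf7l2, a transcription factor of the Wnt pathway and a near neighbour of Habp2, was read at chr19:55817272-55817331 and chr19:55994029-55994088, both on the plus strand.
Tcf7l2 first probe: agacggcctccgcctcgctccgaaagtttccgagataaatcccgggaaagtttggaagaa
Tcf7l2 second probe: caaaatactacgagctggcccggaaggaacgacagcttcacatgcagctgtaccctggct
Atrnl1, a membrane protein related to attractin, was read by 2 tested probes, of which the dimmer one, at chr19:57806075-57806134 on the plus strand, is shown.
Atrnl1: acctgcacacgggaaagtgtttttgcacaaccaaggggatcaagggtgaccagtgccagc

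No gene of the segment passed the genotype test in either surgery. After a sham operation 0 of 111 probes were called by limma, against 0.0124% of all tested probes, and after BDL 0 of 111, against 0.194%. The genotype difference averaged over surgeries gave 0 of 111 calls (all probes 0.0165%), and the interaction, which tests whether the genotype difference itself differed between BDL and sham, gave 0 of 111 (all probes 0.0124%). The lowest adjusted p of a member was 0.284 after a sham operation, 0.0889 after BDL, 0.381 in the average and 0.107 in the interaction. A missed threshold does not show equal levels. The 95% confidence interval lay within 1 log2 unit of 0 for 83 of the 111 probes after a sham operation, for 79 after BDL and for 99 in the average, and its median half-width was 0.48 in either surgery.

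Below that threshold the segment held more small p-values than the array as a whole, by the smallest margin after BDL. After a sham operation 17 of 111 members (15.3%) had an unadjusted p under 0.05, against 7.54% of all probes. Of these, 12 were higher in FSAP-deficient livers (10.8%, all probes 5.06%) and 5 lower (4.5%, all probes 2.48%). After BDL 18 members (16.2%) did, against 12.9% of all probes, and here 5 were higher (4.5%, all probes 6.4%) and 13 lower (11.7%, all probes 6.46%). In the average over surgeries 14 members (12.6%) did, against 7.65%, and in the interaction 25 (22.5%), against 13.3%. Of those 25, 20 had a genotype difference that was lower after BDL than after a sham operation (18%, all probes 7.51%) and 5 one that was higher (4.5%, all probes 5.83%).

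The direction of a genotype difference in sham-operated liver mostly did not carry over to ligated liver, among the members as among all probes. It had the same sign in both surgeries for 42 of 111 members (37.8%), against 43.7% of all probes. An unadjusted p under 0.05 in both surgeries was found for 4 members (3.6%, all probes 1.18%), and of these Gsto1 and Sfxn4 had the same sign in both (1.8%, all probes 0.264%). The median difference was 0.05 after a sham operation and -0.08 after BDL over the members, against 0.03 and -0.03 over all probes, so the segment did not shift as a block. The median absolute difference was 0.23 after a sham operation and 0.28 after BDL, against 0.17 and 0.21 over all probes.

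**Figure D1:**
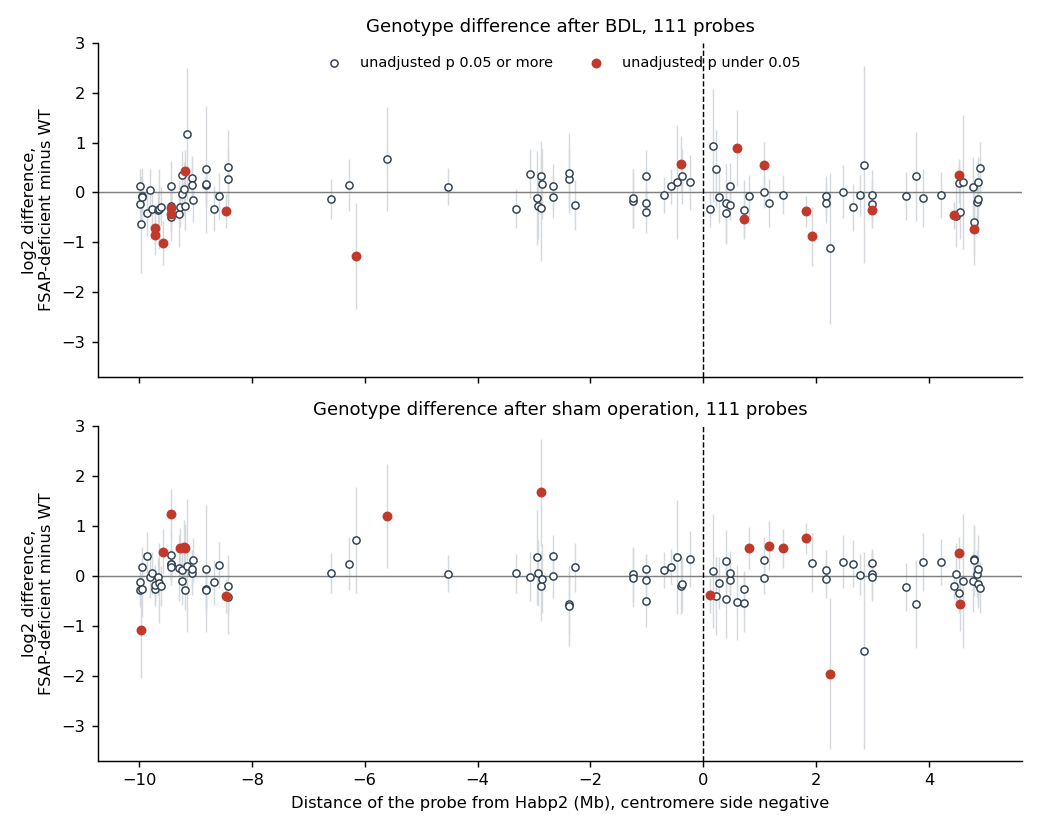
Genotype difference (FSAP-deficient minus WT, log2) of the 111 tested probes by distance from Habp2 in Mb, after BDL (upper panel) and after a sham operation (lower panel), with 95% confidence intervals as grey lines and filled points for an unadjusted p under 0.05. Points lie on both sides of 0 along the whole segment, with 18 filled points after BDL and 17 after a sham operation, and the dashed line marks Habp2.

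Set beside whole chromosomes, the segment ranked high in the size of its differences. Its share of probes with an unadjusted p under 0.05 was above that of each of the 19 autosomes, with chromosome 19 counted without the segment, in all 4 comparisons. The highest autosome reached 9.30% after a sham operation, 14.5% after BDL, 9.34% in the average and 15.5% in the interaction. Its median absolute difference was above all 19 autosomes after a sham operation (autosomes 0.15 to 0.19), after BDL (0.20 to 0.23) and in the interaction (0.29 to 0.33), and above 15 of 19 in the average.

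Whole autosomes hold many more probes and vary less than a short stretch does. Of the 9 windows of 5 Mb on the rest of chromosome 19, with 24 to 192 tested probes each, 3 exceeded the segment's share after a sham operation, where the windows ran from 4.69% to 17.1%. After BDL 2 of 9 windows did (7.41% to 23.8%), in the average 4 (2.47% to 20.8%) and in the interaction 3 (9.88% to 28.6%). The segment's share therefore lay within the range of other stretches of the same chromosome in each comparison. The windows above it after a sham operation held 24, 42 and 88 tested probes, fewer than the 111 of the segment. All windows lie on the chromosome of the targeted gene, and how far its flank reaches along it was not tested. Windows of other chromosomes were not compared, so these ranges do not show what an unlinked stretch would give.

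**Figure D2:**
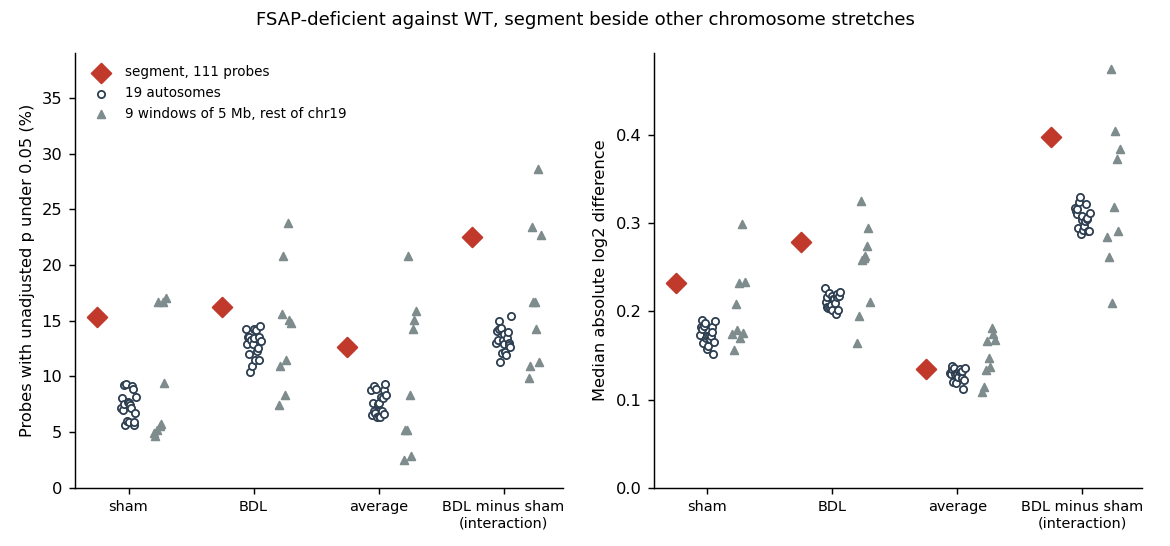
Share of probes with an unadjusted p under 0.05 (left, percent) and median absolute log2 difference (right) in 4 genotype comparisons, for the segment (diamonds, 111 probes), the 19 autosomes (circles) and 9 windows of 5 Mb on the rest of chromosome 19 (triangles). The diamonds lie above the circles except for the median in the average, and within the spread of the triangles.

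Array by array, the members deviated from WT more than other probes did on each FSAP-deficient array. The measure is the median absolute distance of the members from the mean of the WT arrays of the same surgery (for a WT array, of its other WT arrays), divided by the same median over all probes. The ratio was 1.1, 1.2 and 1.1 in FSAP-deficient livers after BDL, against 1.03, 0.98 and 0.89 in WT livers after BDL. It was 1.33, 1.33 and 1.28 in FSAP-deficient sham livers, against 0.98, 0.96 and 1.04 in WT sham livers. The groups did not overlap in either surgery, and the smaller gap was after BDL. The FSAP-deficient ratios of a surgery share the mean of the same 3 WT arrays, while each WT ratio rests on 2. All WT sham arrays lay on a slide without FSAP-deficient arrays. The ratio was not taken for other stretches of probes, so its usual range is not known.

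**Figure D3:**
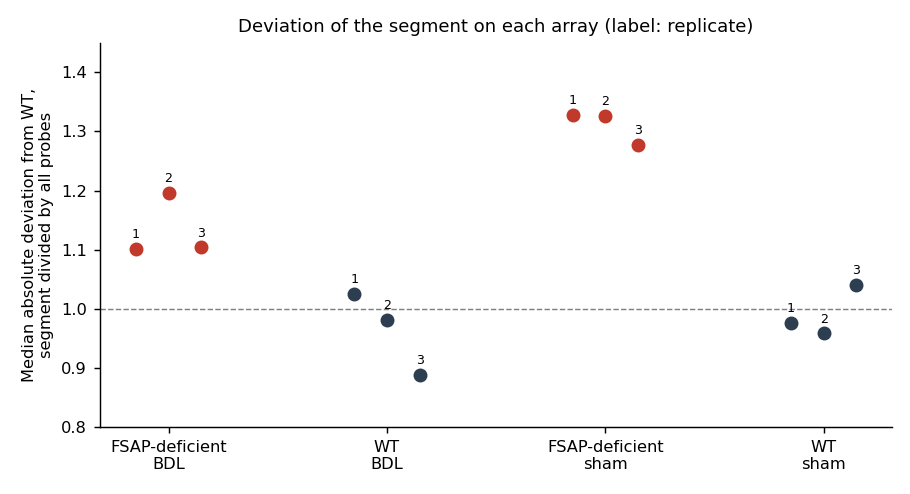
Median absolute deviation of the segment from the WT arrays, divided by the same measure over all probes, for each array (points, labelled by replicate). The 6 FSAP-deficient arrays (red) lie between 1.1 and 1.33 and the 6 WT arrays (dark) between 0.89 and 1.04, and the dashed line marks equal deviation.

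The excess was smaller with the slide as a fixed term in the model. The arrays lay on 4 slides, and no slide held both genotypes of the same surgery, so no genotype difference could be read within a slide. Replicate 1 of the FSAP-deficient sham group lay alone on slide 4, so a fixed slide term takes up that array. Only slide 2 held both genotypes, with WT BDL replicates 2 and 3 and FSAP-deficient sham replicate 2. The genotype differences of the fixed block rest on that slide, and a smaller share there can also come from lower precision. With the slide as a fixed block in the model, 9.01% of the members had an unadjusted p under 0.05 after a sham operation, against 8.95% of all probes, and 8.11% against 6.44% after BDL. With the slide as a random block the shares were 14.4% against 6.64% after a sham operation and 14.4% against 11.1% after BDL. Without the 3 arrays with Y-linked signal, only replicate 3 of the FSAP-deficient BDL group was left, so shares are not given. The median difference of the members was then -0.13 after BDL (all probes -0.05) and 0.02 after a sham operation (all probes 0.02). Without replicate 1 of the FSAP-deficient sham group the sham share was 10.8% against 6.99%. The part of the slide in the result was not tested beyond these values.

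Markers of other cell types were set beside these values in ligated livers, where 0 were called for genotype in any list. The summed level of 10 stellate cell and myofibroblast markers ran from 5.83 to 7.72 in FSAP-deficient livers after BDL, against 4.13 to 5.85 in WT livers after BDL. These ranges overlap, and 6 of the 10 markers had an unadjusted p under 0.05 (all probes 12.9%), with a median difference of 1.33. The summed level of the 10 hepatocyte markers ran from 11.23 to 11.68 in FSAP-deficient livers after BDL, against 11.32 to 12.12 in WT livers after BDL. Of the hepatocyte markers, 4 of 10 had an unadjusted p under 0.05 after BDL, with a median difference of -0.30. The summed level of 10 macrophage markers after BDL ran from 7.338 to 7.452 in FSAP-deficient livers, against 6.981 to 7.253 in WT livers. These macrophage ranges do not overlap, and 3 of the 10 had an unadjusted p under 0.05, with a median difference of 0.407. For 10 cholangiocyte markers the ranges overlapped after BDL, and 1 of 9 tested had an unadjusted p under 0.05. For 13 pancreatic acinar markers, of which 6 were bright enough to test, 0 were called for genotype. In whole liver, fewer cells of a type and less RNA per cell cannot be told apart, and the part of the markers in the segment's differences was not tested.

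The share of small p-values followed no steady course with distance from Habp2, and was highest beyond 5 Mb in both surgeries. Within 1 Mb, 2 of 18 tested probes had an unadjusted p under 0.05 after a sham operation (11.1%, all probes 7.54%) and 3 after BDL (16.7%, all probes 12.9%). At 1 to 3 Mb the counts were 5 (16.1%) and 4 (12.9%) of 31, at 3 to 5 Mb 2 (10%) and 3 (15%) of 20, and beyond 5 Mb, on the centromere side alone, 8 of 42 in both surgeries (19.1%). The median absolute difference within 1 Mb was 0.28 in both surgeries, and beyond 5 Mb it was 0.24 after a sham operation and 0.30 after BDL.

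Groups that did not overlap were found for 22 of 111 members after BDL (19.8%, all probes 15.6%), with 4 higher (3.6%, all probes 6.57%) and 18 lower (16.2%, all probes 9.08%). In sham livers there were 30 (27%, all probes 16.6%), with 17 higher (15.3%, all probes 9.32%) and 13 lower (11.7%, all probes 7.29%).

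Near genes on the telomere side included Plekhs1, a pleckstrin homology domain protein, Dclre1a, a nuclease of DNA cross-link repair, Nhlrc2, and Adrb1, the beta-1 adrenergic receptor. Nhlrc2 had the narrowest interval among them, at -0.09 after BDL (95% interval -0.61 to 0.43) and -0.15 after a sham operation (-0.67 to 0.37). Dclre1a differed by 0.48 after BDL (-0.30 to 1.25) and by -0.40 after a sham operation (-1.17 to 0.38). Plekhs1 differed by 0.94 after BDL (-0.20 to 2.07) and was not well above background on 5 of 6 sham arrays. Adrb1 was read by a pair of probes, which differed by -0.40 and -0.22 after BDL and by 0.29 and -0.45 after a sham operation. None of these differences was called.

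On the centromere side the nearest tested genes were Gm4470, a predicted gene, Tcf7l2, Ppnr, Vti1a, a vesicle fusion protein, and Zdhhc6, which adds palmitate to proteins. Gm4470, 0.234 Mb away, differed by 0.21 after BDL (95% interval -0.35 to 0.76) and by 0.34 after a sham operation (-0.22 to 0.89). Vti1a differed by -0.06 (-0.41 to 0.30) and 0.13 (-0.23 to 0.49). Ppnr had the widest intervals, at 0.21 (-0.92 to 1.35) and 0.38 (-0.76 to 1.52). Zdhhc6 differed by -0.38 and -0.21 on its probes after BDL and by -0.07 and 0.15 after a sham operation. None of these was called either.

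Tcf7l2 was read by 3 tested probes. Its second printed probe stood at -2.06, -1.95 and -2.08 in FSAP-deficient livers after BDL, against -1.91, -3.08 and -2.81 in WT livers after BDL, so that replicate 1 of the WT group lay above every FSAP-deficient array. The difference was 0.57 (95% interval 0.01 to 1.13, adjusted p = 0.382). The first printed probe differed by 0.12 and the probe not shown by 0.32 after BDL. In sham livers the 3 differences were 0.19, -0.19 and -0.16.

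The members with the smallest genotype p-values lay far from Habp2 for the most part, and were chosen for description after their values were seen. As3mt, 9.57 Mb away on the centromere side, stood at 1.00, 1.25 and 1.1 in FSAP-deficient livers after BDL, against 2.37, 1.99 and 2.03 in WT livers after BDL. In sham livers it stood at 2.04, 1.25 and 1.77 without FSAP, against 1.1, 1.14 and 1.37 in WT. The mutants were thus all lower than WT after BDL, and 2 of 3 were higher than every WT liver after a sham operation. The difference was -1.01 after BDL (SE 0.20, adjusted p = 0.0889) and 0.48 after a sham operation (SE 0.20, adjusted p = 0.624), and the interaction was -1.50 (SE 0.29, adjusted p = 0.114).

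Sfxn2, a sideroflexin of the mitochondrial membrane, 9.72 Mb away on the same side, was read by a pair of probes that moved together. The brighter one stood at 2.23, 2.42 and 2.40 in FSAP-deficient livers after BDL, against 3.29, 2.97 and 3.37 in WT livers after BDL. In sham livers it stood at 3.10, 3.15 and 3.65 in FSAP-deficient livers, against 3.55, 3.35 and 3.54 in WT livers. The groups were apart after BDL and overlapped after a sham operation. The differences were -0.86 and -0.72 on the 2 probes after BDL (adjusted p = 0.0907 and 0.103), and -0.52 and -0.49 in the average over surgeries (adjusted p = 0.395 and 0.381).

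On the telomere side Atrnl1 had the lowest p-values after a sham operation and in the interaction, but not after BDL, where Eif3a was lowest (adjusted p = 0.163). Its brighter probe, 1.82 Mb away, stood at -0.19, 0.01 and -0.17 in FSAP-deficient livers after BDL, against 0.15, 0.36 and 0.28 in WT livers after BDL. Its sham levels were 0.52, 0.43 and 0.31 in FSAP-deficient livers, against -0.22, -0.55 and -0.24 in WT livers. The order of the genotypes was thus opposite in the 2 surgeries, without overlap in either. The difference was -0.38 after BDL (SE 0.14, adjusted p = 0.292) and 0.76 after a sham operation (SE 0.14, adjusted p = 0.284), and the interaction was -1.14 (SE 0.20, adjusted p = 0.107). The printed Atrnl1 probe differed by -0.05 after BDL and by 0.56 after a sham operation.

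The smallest p-value after a sham operation belonged to ENSMUST00000026015, an identifier with no symbol whose probe on the plus strand overlaps the Nt5c2 probe on the minus strand. The sources used here do not say which transcript it reads. It stood at -4.39, -4.03 and -3.91 in FSAP-deficient livers after BDL, against -3.93, -4.36 and -4.44 in WT livers after BDL. Its sham levels were -3.23, -3.69 and -3.73 in FSAP-deficient livers, against -4.56, -4.71 and -5.12 in WT livers, with no overlap. The sham difference was 1.25 (SE 0.22, adjusted p = 0.284) and the difference after BDL was 0.14 (adjusted p = 0.854). Nt5c2 itself differed by 0.18 and 0.23 on its probes after a sham operation, and by -0.43 and -0.28 after BDL.

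Gsto1 and Sfxn4 held their sign in both surgeries. Gsto1, an omega-class glutathione transferase, stood at 3.49, 3.68 and 3.51 in FSAP-deficient livers after BDL, against 4.17, 4.01 and 3.63 in WT livers after BDL. The sham levels were 4.22, 4.34 and 4.25 in FSAP-deficient livers, against 4.70, 4.58 and 4.74 in WT livers. It differed by -0.37 after BDL and by -0.40 after a sham operation (SE 0.15 for both, adjusted p = 0.342 and 0.565), and the groups overlapped after BDL but not after a sham operation. Its average was -0.39 (95% interval -0.63 to -0.15, adjusted p = 0.485). Sfxn4, another sideroflexin, at 4.53 Mb on the telomere side, stood at -3.85, -4.25 and -3.92 in FSAP-deficient livers after BDL, against -4.36, -4.36 and -4.36 in WT livers after BDL. In sham livers it stood at -4.13, -4.50 and -4.28 without FSAP, against -4.79, -4.72 and -4.78 in WT. The FSAP-deficient values were the higher ones in both surgeries, without overlap, and the difference after BDL was 0.35 (adjusted p = 0.352). No WT sham array and 1 FSAP-deficient sham array were well above background for it. The fitted sham difference, 0.46 or 1.38-fold (adjusted p = 0.415), thus rests on mostly dim values. Eif3a, a translation initiation subunit, and Prdx3, a mitochondrial peroxiredoxin, had averages of -0.32 (adjusted p = 0.478) and -0.47 (adjusted p = 0.591).

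Ablim1, an actin-binding LIM protein 0.719 Mb from Habp2, was the near gene with the lowest average p. Its brighter probe stood at -1.23, -1.22 and -1.33 in FSAP-deficient livers after BDL, against -0.89, -0.87 and -0.44 in WT livers after BDL. In sham livers it stood at -1.39, -1.21 and -0.94 without FSAP, against -0.94, -0.84 and -0.98 in WT, so the groups were apart after BDL and overlapped in sham livers. The average difference was -0.39 (95% interval -0.65 to -0.14, adjusted p = 0.495) on this probe and -0.44 (-0.86 to -0.02, adjusted p = 0.641) on the other.

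The other members with an unadjusted p under 0.05 did not keep it across surgeries. In sham livers Pdcd11, a factor of ribosome biogenesis, was higher without FSAP by 0.56 on its brighter probe (adjusted p = 0.594), Trub1, a pseudouridine synthase of tRNA, by 0.61 (adjusted p = 0.512) and Pcgf6, a Polycomb subunit, by 0.57 (adjusted p = 0.406). For the dimmer Pdcd11 probe, no WT sham array and 1 FSAP-deficient sham array were well above background. Its bound, at least 1.11-fold higher (adjusted p = 0.624), thus rests on a mean of mostly dim values. After BDL the differences were -0.26 for the brighter Pdcd11 probe, -0.21 for Trub1 and -0.30 for Pcgf6. Gfra1, a receptor for glial cell line-derived neurotrophic factor, differed by -0.88 after BDL (adjusted p = 0.201) and by 0.27 in sham livers. Fam160b1 differed by 0.56 after BDL on one probe (adjusted p = 0.297) and by 0.01 on the other.

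**Figure D4:**
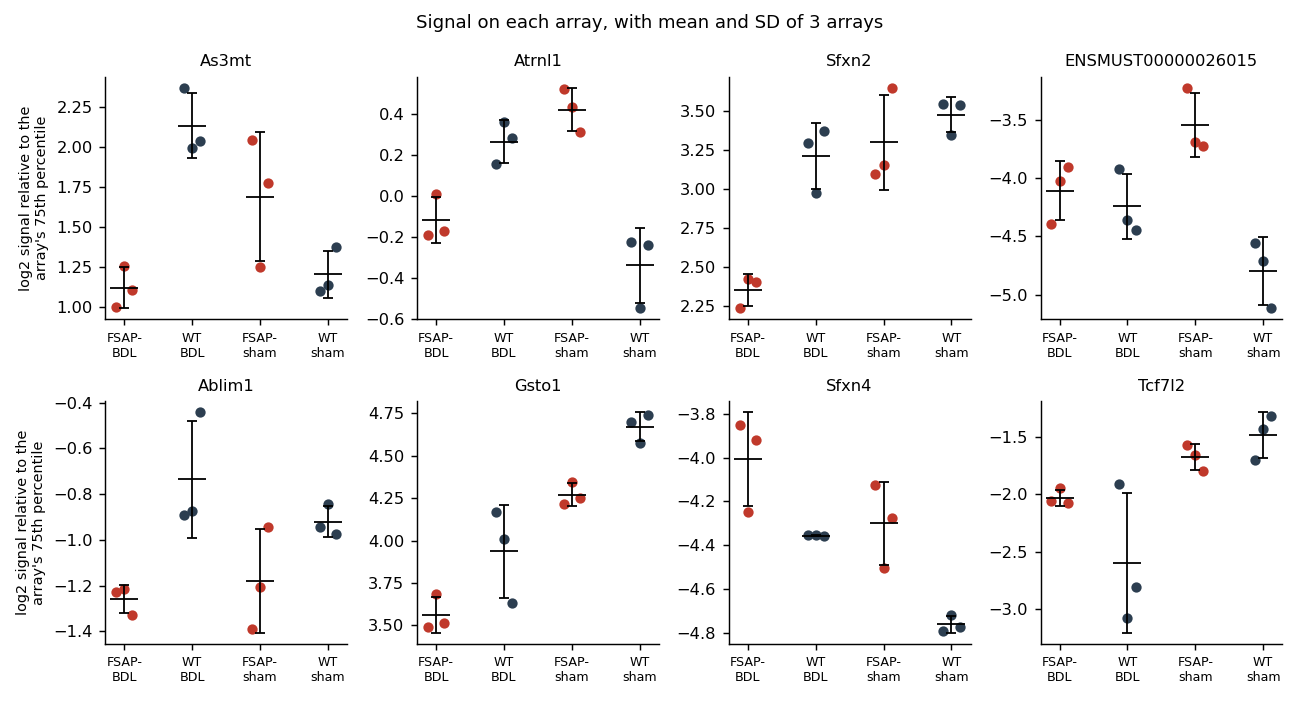
Log2 signal relative to the array's 75th percentile for 8 members on each array (points), with the mean and SD of 3 arrays (black), in FSAP-deficient (FSAP-, red) and WT (dark) livers after BDL and after a sham operation. As3mt and Atrnl1 have opposite genotype orders in the 2 surgeries, Sfxn2 differs mainly after BDL, Ablim1 is apart after BDL, Gsto1 has a lower mean in FSAP-deficient livers in both, and the Sfxn4 points are higher in FSAP-deficient livers in both, with the WT sham arrays not well above background.

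Larger fitted differences came from dim probes. Mirt1, a noncoding RNA of the heart in mice, had one probe with a sham difference of 1.68 (adjusted p = 0.356) and a second with -0.05. With ligation in FSAP-deficient livers the first probe was at least 4.32-fold lower (adjusted p = 0.000793), while the second changed by 0.69 and was not called. Ccdc172, a coiled-coil protein gene, had no FSAP-deficient sham array well above background, and was at least 2.16-fold lower there than in WT sham livers (adjusted p = 0.492). Over the 13 genes with more than 1 tested probe (27 probes), 0 genes had a genotype call on one probe and not on another. The signs of the probes differed within 7 of 13 genes after a sham operation and within 2 after BDL. For ligation, 6 of 13 genes in FSAP-deficient livers and 3 in WT livers had a call on one probe and not on another.

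Grouped by role, members gave 0 genotype calls in each of 7 lists. The lists cover lipid metabolism (3 genes tested, of which Plekhs1 has no lipid role known here), redox and detoxification (5), cell death and translation (5), signalling and transcription (8), chromosome structure and DNA repair (4), cytoskeleton and matrix (5), and membrane traffic and mitochondria (14). The traffic and mitochondria list, with Sfxn2, Cnnm2, Pdzd8, Sfxn4, Sorcs1 and Atrnl1, held 7 of 18 probes with an unadjusted p under 0.05 after BDL (all probes 12.9%) and a median difference of -0.27 (all probes -0.03). The redox list held 3 of 5 such probes after a sham operation (all probes 7.54%, median -0.40). Of these, Gsto1 and Prdx3 were lower in FSAP-deficient livers and As3mt was higher. After BDL the redox list held 2 of 5 such probes (all probes 12.9%, median -0.37). Lipid and DNA repair genes held 0 such probes in either surgery. Cnnm2, a magnesium-handling membrane protein, differed by -0.31 after BDL and by 0.24 after a sham operation (adjusted p = 0.368 and 0.75), and Pdzd8, a tether between the endoplasmic reticulum and other organelles, by -0.35 and 0.26 on its brighter probe (adjusted p = 0.297 and 0.714).

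Ligation, by contrast, changed many members, at about the rate of the whole array. In FSAP-deficient livers 40 of 111 probes (36.0%) were called for BDL against sham, beside 37.7% of all probes, with 17 higher (15.3%, all probes 16.1%) and 23 lower (20.7%, all probes 21.7%). In WT livers 38 (34.2%) were called, beside 32.2%, with 22 higher (19.8%, all probes 15.2%) and 16 lower (14.4%, all probes 17.0%). The split follows the scaling, since with each array set to its median instead 14 were higher and 36 lower in FSAP-deficient livers, and 15 were higher and 21 lower in WT livers. Called in both genotypes with the same sign were 22 probes (19.8%, all probes 23.1%). Each genotype was set against its own sham group.

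Plekhs1 had the largest change. It stood at -0.74, -0.97 and -0.26 in FSAP-deficient livers after BDL, against -4.98, -6.98 and -6.70 in FSAP-deficient sham livers (log2 change 5.56, SE 0.51, adjusted p = 3.59e-05). In WT livers it stood at -1.79, -2.05 and -0.94 after BDL, against -6.13, -5.80 and -7.03 after a sham operation, where no array was well above background, so that it was at least 9.78-fold higher (adjusted p = 9.92e-05). Csf2ra, the alpha chain of the GM-CSF receptor of myeloid cells, rose by 2.10 in FSAP-deficient livers and by 1.37 in WT livers (adjusted p = 8.56e-05 and 0.00123). Itprip, which binds the inositol trisphosphate receptor, rose by 2.03 in FSAP-deficient livers and by 1.56 in WT livers (adjusted p = 0.000296 and 0.00164). Gm6970, Gm4223 and ENSMUST00000099340 also rose in both genotypes.

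Gsto2 and Gm4470 fell furthest among members called in both. Gsto2, the second omega-class glutathione transferase and a neighbour of Gsto1, stood at -4.68, -5.04 and -4.93 in FSAP-deficient livers after BDL, against -2.39, -2.02 and -2.23 in FSAP-deficient sham livers. In WT livers it stood at -5.60, -6.13 and -4.49 after BDL, against -1.59, -1.94 and -1.83 after a sham operation. The changes were -2.67 and -3.62 (SE 0.33 for both, adjusted p = 0.00019 and 3.87e-05), and after BDL 1 of 3 arrays of each genotype was well above background. Gm4470 changed by -2.04 and -1.91 (adjusted p = 0.000177 and 0.000303).

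By role, 4 of 5 redox genes fell with ligation in FSAP-deficient livers (Gsto1, Gsto2, As3mt and Prdx3, all probes lower 21.7%) and 0 rose. In WT livers 3 of 5 fell (Gsto1, Gsto2 and Prdx3, all probes lower 17.0%) and As3mt rose. Of the FSAP-deficient calls, that of Prdx3 held in 16 of 26 settings and that of As3mt in 8 of 26. Of the 14 traffic and mitochondria genes, 6 fell in FSAP-deficient livers (all probes lower 21.7%; Sfxn2, Zdhhc6, Cnnm2, Pdzd8, Atrnl1 and the ATP synthase subunit gene Atp5md) and Itprip rose. In WT livers Atp5md fell, and Itprip, Atrnl1 and the aminopeptidase gene Xpnpep1 rose. In the lipid list Plekhs1 rose in both genotypes, and Gpam, the first enzyme of glycerolipid synthesis, fell in both on 1 of its 2 probes (in WT livers in 17 of 26 settings), while Acsl5 changed by -0.59 in FSAP-deficient livers (adjusted p = 0.0744) and fell by 1.42 in WT livers (adjusted p = 0.00126).

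Among the other lists, Nt5c2 rose in WT livers on both probes and in FSAP-deficient livers on 1 of 2, and Pdcd4, an inhibitor of translation, changed by -0.63 in FSAP-deficient livers (adjusted p = 0.0889) and fell by 1.48 in WT livers (adjusted p = 0.00206). Of 8 signalling genes, Grk5, a kinase of G protein-coupled receptors, rose and Taf5, a subunit of the basal transcription factor TFIID, fell in both. The Grk5 call in WT livers held in 6 of 26 settings, over all of which the change ran from 0.10 to 1.14, and the Taf5 call in FSAP-deficient livers in 15 of 25. Adrb1 rose in FSAP-deficient livers on one of its probes, a call that held in 16 of 26 settings. Pcgf6 and Gfra1 rose in WT livers, where Tcf7l2 fell on 2 of 3 probes (the call of 1 of these held in 15 of 25 settings). Dclre1a fell in WT livers by 1.18 (adjusted p = 0.0252), and Afap1l2, an actin-binding adaptor, rose in FSAP-deficient livers and was at least 2.33-fold higher (adjusted p = 0.00972). Whether these calls in a single genotype differ between genotypes is the interaction, in which no member was called.

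As3mt and Atrnl1 were the members called for ligation in opposite directions in the 2 genotypes (1.8%, all probes 0.149%). As3mt fell by 0.57 in FSAP-deficient livers (SE 0.20, adjusted p = 0.0472) and rose by 0.93 in WT livers (SE 0.20, adjusted p = 0.00548). The brighter Atrnl1 probe fell by 0.54 in FSAP-deficient livers (SE 0.14, adjusted p = 0.012) and rose by 0.60 in WT livers (SE 0.14, adjusted p = 0.00779). Within a slide, the FSAP-deficient changes were -0.65 for As3mt and -0.43 for Atrnl1 (3 BDL arrays against 1 sham array), and on another slide the WT changes were 1.16 and 0.49 (1 BDL array against 3 sham arrays). The As3mt call in FSAP-deficient livers was lost in 18 of 25 alternatives, while its WT call held in all 25. Among the losses was the run without replicate 1 of the FSAP-deficient sham group (change -0.39, adjusted p = 0.155). Without the arrays with Y-linked signal, which left only replicate 3 of the FSAP-deficient BDL group, the As3mt change was -0.41.

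**Figure D5:**
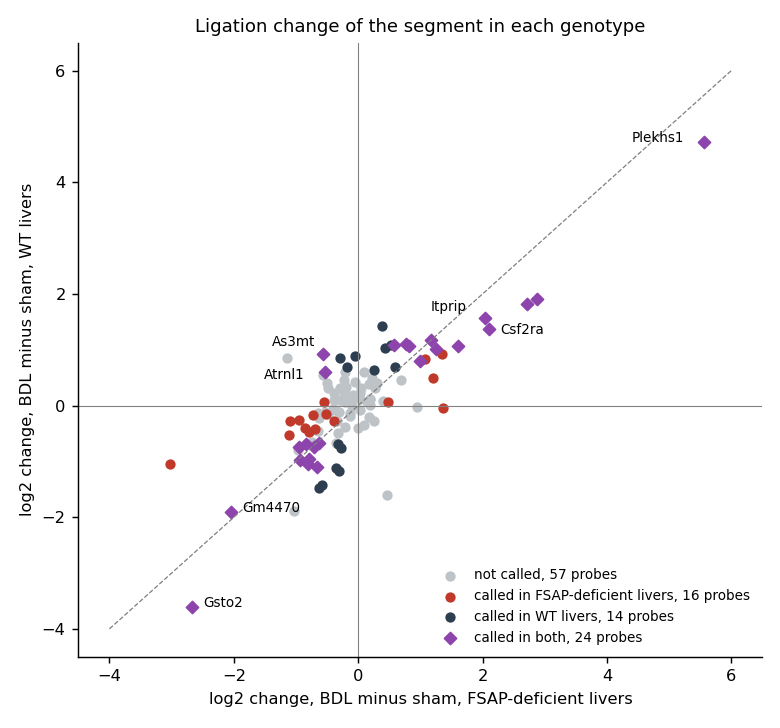
Ligation change (BDL minus sham, log2) of the 111 tested probes in FSAP-deficient livers (horizontal) and WT livers (vertical), with colours for the calls at an adjusted p under 0.05 and a dashed line of equal change. The 24 probes called in both include 22 with the same sign in both genotypes and, at the upper left, As3mt and Atrnl1, and 57 probes were called in neither.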

How the data were processed

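Whole-liver RNA of 12 mice was labelled with Cy3 and hybridised to 12 one-colour Agilent arrays, per the labels' protocols. The intensity values were extracted from the scans with Feature Extraction 10.5.1.1, background-subtracted, and placed on mm9, per the file headers (the header of FSAP-deficient sham replicate 1 names no build). The deposited series table, used as an alternative, holds the authors' log2 values of these arrays, with scale and centring unstated. Processed intensities were averaged over spots of a probe, without outlier spots, turned to log2 and set to each array's 75th percentile. Probes well above background on at least 3 of 12 arrays were tested with limma 3.58.1 on the 4 group means of all 12 arrays, with Benjamini-Hochberg adjustment over 24235 probes. The method was tested on simulated data. The members and gene lists were chosen with earlier results of these data known. Named genes are those called for genotype (0 here), the 5 nearest tested genes on each side, listed genes called for BDL, the 8 largest changes called in both genotypes, and genes whose probes disagree. One gene that this rule names is not reported here. Others are said to be chosen after their values were seen. Where a group had no array well above background, a fold is a lower bound against the lowest signal well above background on each array, or the probe's own if higher. For Sfxn4 in sham livers it equals the fitted fold. Gene symbols are those of the files, updated through RefSeq names (GRCm38.p6) for 118 of 158 member probes with an accession.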

Additional observations from a re-analysis of the deposited data

How the results depend on the processing

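The genotype counts of 0 held under every alternative run except 2. With normexp background correction 2 members were called after BDL, As3mt (-0.96, adjusted p = 0.0351) and Sfxn2 (-0.95, adjusted p = 0.0285), with 161 calls over all probes against 47. With a term for Y-linked signal 2 members were called in the interaction, As3mt (-1.59, adjusted p = 0.0302) and Atrnl1 (-1.17, adjusted p = 0.0285), with 352 calls over all probes against 3. The cause was not tested. All-probe calls after BDL were 69 with median scaling, 21 with the Y-linked term, 13 with the replicate block and 9 with the slide as a random block. They were 8 without the filter on dim probes, 3 with only the compared groups and 2 with the slide as a fixed block. In the interaction they were 15 with normexp, 6 with probes well above background on all 12 arrays, and 0 with the replicate block or without the filter. All-probe counts without the arrays with Y-linked signal are not given, since only replicate 3 of the FSAP-deficient BDL group was left there.

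Leaving out each array in turn left 0 to 0 members called in the genotype comparisons, and 34 to 42 called for ligation without FSAP and 27 to 44 in WT. These BDL counts were 21 and 16 with the slide as a fixed block, and 24 in FSAP-deficient livers with only the compared groups, where fewer samples estimate the spread. With the replicate block they were 37 and 35, and genotype counts stayed at 0. Same-numbered arrays did not deviate together (correlations -0.197 to 0.197), so the numbers were not taken to pair mice. Under median scaling the median change of all probes with ligation was -0.31 in mutants (main setting -0.15) and -0.16 in WT (-0.02), and the median genotype difference after BDL was -0.13 (-0.03). The members' share of unadjusted p under 0.05 was above that of all probes under every setting after a sham operation, though barely with the slide as a fixed block (9.01% against 8.95%). After BDL it was below with the Y-linked term and without replicate 2 of the FSAP-deficient BDL group. These settings reuse the same arrays, so they do not count as separate observations. The Atrnl1 call for BDL was lost with the slide as a fixed block in both genotypes (adjusted p = 0.185 in FSAP-deficient and 0.152 in WT livers). The average and the interaction were not run with only the compared groups, which are all 4. Signal over background limits 86 members, which were not tested.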
